A study of Mus musculus with 8 samples.

Results

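PMC-306 and PMC-303 are 2 murine mast cell lines that arose spontaneously and independently from peritoneal mast cell (PMC) cultures of wild-type mice, and their autosomal transcriptomes were compared directly. Every one of the 50541 autosomal genes in the table was considered, and the 12364 genes that reached a level of at least 1 CPM, counts scaled to a common library total, in either line were compared, out of 55359 genes in all. The remaining 38177 autosomal genes stayed under that level in both lines. Gene counts came from bulk RNA sequencing of 8 libraries, 1 of each line and 6 of primary PMC cultures, 3 from female and 3 from male mice. All mice were wild-type on a mixed C57BL/6 and 129/Sv background, and all cells were left without treatment. Both lines grew in the same medium, with less serum and less stem cell factor (SCF) than the medium of the primary cultures, so that the direct comparison of the lines held the medium constant. The 2 lines are each a single line with a single library. They also carry different chromosomal changes. In PMC-306 the study described a heterozygous interstitial deletion on chromosome 4, and a translocation between the Y chromosome and an autosome in a part of the karyotypes. In PMC-303 it described an additional chromosome 8 in a part of the metaphases.

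Mast cells are tissue-resident cells of the haematopoietic lineage that store proteases, heparin and amines in secretory granules and release them when antigen crosslinks receptor-bound immunoglobulin E. Their survival depends on the SCF receptor KIT. In the study, less interleukin-3 lowered the viability of PMC-306 but not that of primary PMCs. Peritoneal mast cells are of the connective tissue type, whose granules are rich in chymases, tryptases and carboxypeptidase A3. Lines that arise from one cell type in separate cultures can keep genes of that cell type and can also differ from line to line.

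With 1 library of each line no replicate error exists for the lines, so no p-value is given for any difference. The yardstick was the spread of the 6 primary cultures. A gene was called when the lines were at least 5-fold apart on the log2(CPM + 0.1) scale, and when this difference was also wider than that of every one of the 15 pairs of primary cultures. Whether the primary cultures vary as much as repeat libraries of a line would was not tested. The labels call the primary cultures biological replicates and do not name the animals. Where a pair of levels is given, PMC-306 stands first and PMC-303 second. Differences are PMC-306 minus PMC-303 on the log2 scale, and folds include the offset of 0.1 CPM unless a ratio of CPM is named. Where one line had 0 counts, the fold is a lower bound computed from 3 counts in that library, which equal 0.147 CPM for PMC-306 and 0.123 CPM for PMC-303. Intervals and bounds cover counting error only.

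Each gene list is described by its called members and its median difference. Over all compared genes, 3.91% were called and the median difference was -0.06, and the counts of each list are set beside these. The lists differed in how many members stayed under 1 CPM in both lines. These were 114 of 152 cell adhesion and matrix genes, 24 of 38 imprinted genes and 137 of 177 ion channel genes. In such lists a gene may have been compared only because 1 line was high, which can raise the share called. The primary pairs carry no such selection, so these shares are descriptions only. Since the order of libraries within a primary pair is arbitrary, a list median is set beside the largest absolute median of the 15 primary pairs.

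Library totals ranged from 15918758 to 24180226 counts, with 19031806 for PMC-306 and 23195483 for PMC-303. Both lines carried the 10 mast cell markers, whose summed level was 41766 against 45468 CPM, while the primary cultures had 48323 to 75994 CPM. Of these markers only Hdc was called. Of 18 macrophage and monocyte markers the summed level was 816 against 461 CPM, while primary PMCs had 51.3 to 92.6 CPM. These sums rested on Adgre1, Ccr2 and Cx3cr1. Of the 7 markers compared, 5 had a positive difference, with a median of 1.82, and Adgre1 and Ccr2 were called higher in PMC-306. The other 11 markers, among them Csf1r, Mertk, Mrc1, Cd14 and C1qa, stayed under 1 CPM in both lines. A compared marker may have passed that level only because 1 line was high, so this median is a description only. Adgre1 was also chosen with earlier results of these data known. The marker lists of T and NK cells, neutrophils and fibroblasts summed to under 2 CPM in each line. The B cell markers summed to 6.63 against 21.4 CPM, almost entirely from Ighm. The erythroid and megakaryocytic list summed to 1141 and 1375 CPM, of which the mast cell integrin gene Itga2b made up most. PMC-306 expressed the Y-linked Ddx3y at 122 CPM, and PMC-303 expressed Xist at 900 CPM. The labels give no sex for the lines, while the study reported a male karyotype for PMC-306. The sex of the donor mouse cannot be told apart from the line. PMC-303 also held 1.04% to 1.78% of the PMC-306 level of 4 Y-linked transcripts, where female primary cultures held at most 0.0439 CPM of each. Of the 226 genes called higher in PMC-306, 61 had a PMC-303 level below the lowest of these Y-linked shares, and the part of this RNA in the residual PMC-303 levels was not tested.

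The 2 lines were further apart than any pair of primary cultures and closer to each other than to the primary cells. Between the lines, 580 of 12364 genes (4.69%) lay 5-fold or more apart. Pairs of primary cultures differed at 58 of 12312 genes (0.471%) in the closest pair, at 264 of 12421 (2.13%) in the median pair and at 315 of 12316 (2.56%) in the most distant pair. Against single primary cultures, PMC-306 differed at 7.65% to 9.19% of genes and PMC-303 at 6.30% to 8.39%, comparisons in which the medium differed as well. The median absolute difference between the lines was 0.27 on the log2 scale, against 0.14 to 0.22 among the primary pairs.

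**Figure D1:**
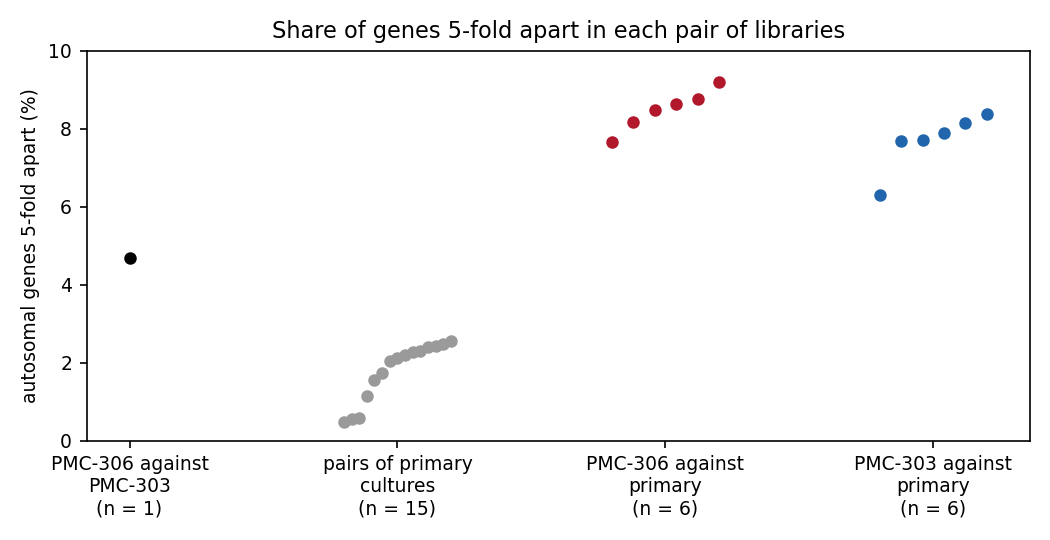
Share of autosomal genes at least 5-fold apart (y axis, in percent) in the pair of lines, the 15 pairs of primary cultures and the 6 pairs of each line with a primary culture, each point being 1 pair of libraries. The pair of lines at 4.69% sits above all primary pairs, which end at 2.56%, and below all pairs of a line with a primary culture, which start at 6.30%.

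Of the 580 genes, 483 also exceeded every primary pair. In PMC-306, 226 genes were higher (1.83% of those compared) and in PMC-303, 257 genes were higher (2.08%). The called genes comprised 409 protein-coding genes and 36 long non-coding RNAs. The lower line had 0 counts for 79 of them, 39 of those called higher in PMC-306 and 40 of those called higher in PMC-303. The remaining 97 genes were 5-fold apart between the lines but also that variable among the primary cultures.

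**Figure D2:**
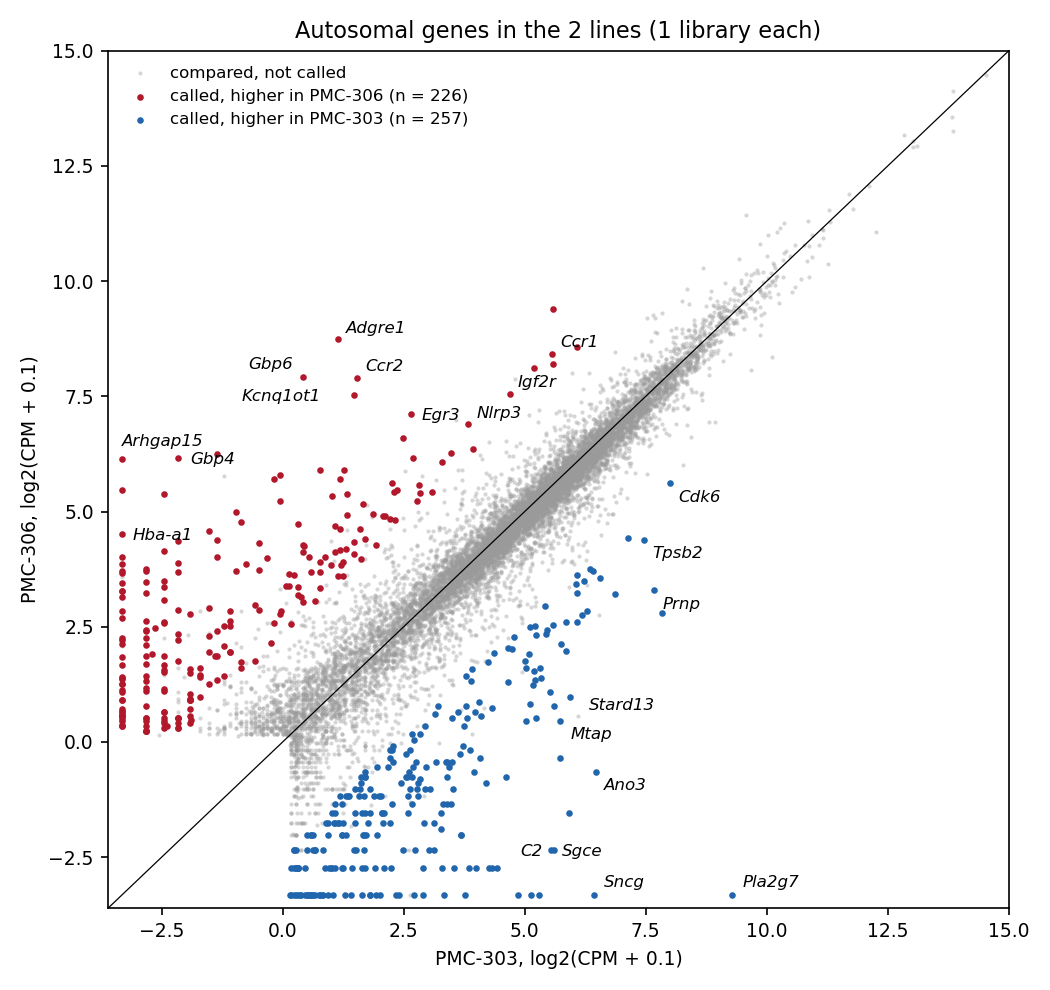
Level of each compared autosomal gene in PMC-303 (x axis) and PMC-306 (y axis), both as log2(CPM + 0.1), with 226 genes called higher in PMC-306 in red and 257 called higher in PMC-303 in blue. Most genes lie along the line of equal level, and Pla2g7, Sncg, Adgre1 and Gbp6 are among the genes farthest from it, while Stard13 is labelled but was not called.

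The called genes can be sorted by which line had left the range of the 6 primary cultures. By construction of the call, no called gene can have both lines within that range. Of the 226 genes higher in PMC-306, 88 were above the primary range in PMC-306 and within it in PMC-303, 36 were within it in PMC-306 and below it in PMC-303, and 56 had left it on opposite sides. Of the 257 genes higher in PMC-303, 65 were above the range in PMC-303 only, 70 were below it in PMC-306 only, and 80 had left it on opposite sides. In the remaining genes both lines had left the range on the same side, above it for 27 and below it for 19 of those higher in PMC-306, and above it for 9 and below it for 33 of those higher in PMC-303. Since the lines differed in these sex-linked transcripts, the primary cultures were also compared by sex. The 3 male and 3 female cultures did not overlap for 969 of the 12364 genes (7.84%), with the male cultures higher at 488 genes (3.95%) and the female cultures at 481 (3.89%). Of the 483 called genes, 42 (8.70%) showed such a separation, 25 (5.18%) in the direction of the sex-linked transcripts of the lines and 17 (3.52%) in the opposite direction.

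PMC-306 expressed more of several guanylate-binding proteins, interferon-inducible GTPases that coat intracellular pathogens and their vacuoles. Of 15 interferon-inducible GTPase genes compared, 6 (40.0%) were called, all higher in PMC-306. The list had a median difference of 1.32, which was smaller than the largest primary pair median of 1.82, so that at least 1 pair of primary cultures differed more on this list than the lines did. Gbp6 was at 242 against 1.23 CPM, and primary cultures ranged from 0.105 through a median of 2.58 to 31.1 CPM. PMC-306 was thus above every primary culture while PMC-303 lay within their range, a difference of 7.5 that was only slightly wider than the widest primary pair at 7.25. Gbp4 was at 71.5 CPM in PMC-306 and, with 3 counts, at 0.123 CPM in PMC-303, below the primary range of 0.21 to 17.6 CPM. Gbp9 stood at 51.8 against 0.782 CPM, and Gbp8 at 14.5 CPM against 0 counts, at least 65.4-fold higher. Gbp11 at 10.1 against 0.0823 CPM and Gbp10 at 1.48 CPM against 0 counts completed the group, although Gbp10 was not called with an offset of 1 CPM. These 6 genes are the members of one cluster on chromosome 5 (GRCm39, 105162016 to 105494338), where they are annotated on the minus strand and where all 6 compared protein-coding genes of the stretch were called. Gbp8, Gbp9 and Gbp4 overlap in the annotation and the paralogs are similar in sequence, so the split of reads among single members is uncertain. The Gbp genes of chromosome 3 differed less, with Gbp2 at 10.7 against 4.24 CPM and Gbp7 at 66.4 against 55.2 CPM. The immunity-related GTPases also differed little, as Irgm1 stood at 17.6 against 17.7 CPM, and Igtp at 18.8 and 24.3 CPM.

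Other interferon-stimulated genes differed little as a list. Of 31 such genes compared, 2 (6.45%) were called, 23 had a positive difference, and the median of 0.30 was smaller than the largest primary pair median of 0.39. Ifi27l2a, a small mitochondrial interferon-induced protein, and Oas1a, which makes the second messenger that activates RNase L, were called. Ifi27l2a was at 20.7 against 0.288 CPM, with primary cultures at 0 to 0.781 CPM. Oas1a was at 7.37 against 0.247 CPM, and here both lines were below the primary range of 10.2 to 18.6 CPM. The transcription factors that carry interferon signals differed little, with Stat2 at 39 against 34.5 CPM and Irf9 at 31.7 against 38.9 CPM. Of 24 genes of antigen presentation, H2-Ob at 12 against 2.26 CPM and H2-Ab1 at 1.13 against 0.0823 CPM were called, and neither was with an offset of 1 CPM. The median of that list was 0.33, within the size of the largest primary pair median of 0.69.

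The promoters of the called genes were searched for the letters of the interferon response element (GAAANNGAA) and of the gamma activated sequence (TTCNNNGAA), on either strand, in the 250 bases before the transcription start of RefSeq genes (assembly GRCm38.p6). Promoters were present for 8804 of the compared genes, of which 7.13% held the first and 7.08% the second. Of 147 genes higher in PMC-306, 10.9% held the first and 8.16% the second, and of 174 genes higher in PMC-303 the shares were 7.47% and 6.90%. In the whole promoter table of 27025 genes, the shares were 8.18% and 8.13%. A match is a match of letters and not a binding site. The genes Gbp4, Gbp6, Gbp8, Gbp9, Gbp10 and Gbp11 have no entry in the table. The number of CG pairs in the same window had a median of 8 among genes higher in PMC-306, 16 among genes higher in PMC-303 and 18 among all compared genes. Promoters are shown for a called interferon-stimulated gene and for genes with the widest differences in each direction, namely the interferon-stimulated Oas1a (chromosome 5, 120907526 to 120907775, minus strand), the PMC-306 gene Arhgap15 at the second of its 2 annotated starts (chromosome 2, 43787105 to 43787354, plus strand), the first of which holds no match, and Pla2g7, which PMC-306 lacked (chromosome 17, 43568201 to 43568450, plus strand). Capitals mark matches to either set of letters.
Oas1a: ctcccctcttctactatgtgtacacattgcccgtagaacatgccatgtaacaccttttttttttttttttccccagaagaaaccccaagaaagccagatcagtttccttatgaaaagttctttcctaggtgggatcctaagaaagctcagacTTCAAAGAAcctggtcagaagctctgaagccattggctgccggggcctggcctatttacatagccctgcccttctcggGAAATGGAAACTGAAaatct
Arhgap15: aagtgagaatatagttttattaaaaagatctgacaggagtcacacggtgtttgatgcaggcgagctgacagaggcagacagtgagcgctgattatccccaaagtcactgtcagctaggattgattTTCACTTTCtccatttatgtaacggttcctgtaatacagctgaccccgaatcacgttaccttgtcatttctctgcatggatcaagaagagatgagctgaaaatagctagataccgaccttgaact
Pla2g7: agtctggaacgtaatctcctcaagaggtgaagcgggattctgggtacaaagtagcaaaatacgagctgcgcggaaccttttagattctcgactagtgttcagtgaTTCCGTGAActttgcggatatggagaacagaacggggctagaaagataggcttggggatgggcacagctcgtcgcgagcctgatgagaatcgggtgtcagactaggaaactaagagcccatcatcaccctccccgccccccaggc

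Several receptors for chemokines and cytokines were higher in PMC-306. Of 36 genes compared, 4 (11.1%) were called, all higher in PMC-306, 25 had a positive difference, and the median of 0.41 was larger than the largest primary pair median of 0.15. Ccr2, the receptor for the monocyte chemoattractant CCL2, was at 240 against 2.80 CPM, an 82.8-fold difference, with primary cultures at 0.56 to 3.20 CPM around a median of 2.03 CPM. PMC-303 was therefore within the primary range and PMC-306 far above it, although the PMC-303 level amounted to 1.17% of that in PMC-306, within the share seen for Y-linked transcripts. Its neighbour Ccr1, a receptor for CCL3 and related chemokines, was at 345 against 47.3 CPM, with primary cultures at 23.9 to 120 CPM. Tnfrsf1b, which encodes a receptor for tumour necrosis factor, was at 16.7 against 2.68 CPM, PMC-303 being the line outside the primary range of 10.2 to 24.7 CPM. Il7r was at 3.29 against 0.123 CPM. Neither Tnfrsf1b nor Il7r was called with TPM or with an offset of 1 CPM. Cx3cr1, the fractalkine receptor, pointed the other way, with 447 CPM in PMC-303 and a difference of -1.86, both lines being above the primary range of 20.1 to 79.6 CPM, and was not 5-fold apart. Among mast cell receptor genes, Kit at 2055 against 1946 CPM, Il1rl1 at 4312 against 4444 CPM and Csf2rb at 1961 against 2295 CPM were close. Fcer1a, the alpha chain of the high-affinity IgE receptor, was at 1323 against 2480 CPM, and its beta chain gene Ms4a2 at 1095 against 1865 CPM. Of the 33 mast cell receptor genes, Gpr35 at 10.4 against 0.988 CPM and the low-expressed Fcgr4 were called (6.06%), Fcgr4 not with an offset of 1 CPM, and the median of 0.08 was -0.01 at 10 CPM or more.

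Adgre1, which encodes the adhesion G protein-coupled receptor F4/80 used as a surface marker of murine macrophages, was at 426 against 2.10 CPM. The primary cultures ranged from 3.37 through a median of 4.15 to 46.4 CPM, so that the lines had left this range on opposite sides, by a difference of 7.60. The PMC-303 level was 0.493% of that in PMC-306. Of the other macrophage and monocyte markers, Ccr2 was called in the same direction, Cx3cr1 was higher in PMC-303, and 11 of the 18 markers stayed under 1 CPM in both lines. Of the 7 adhesion G protein-coupled receptors compared, Adgra3 at 0.0982 against 8.64 CPM and Adgrg6, a receptor known for its role in Schwann cell myelination, at 2.46 against 36.9 CPM were called in the other direction. For Adgrg6, PMC-303 was within the primary range of 12.3 to 42.0 CPM. For Adgra3, PMC-303 was slightly below the primary range of 8.87 to 15.2 CPM. Of 11 integrins, 3 (27.3%) were called, all higher in PMC-306, while 4 of 11 had a negative difference. The median of 0.22 lay within the size of the largest primary pair median of 0.26 and was -0.05 over genes at 10 CPM or more. Itgam and Itgb2 encode the chains of complement receptor 3. Itgam was at 4.66 CPM against 0 counts and Itgb2 at 42.3 against 7.08 CPM, while Itga4, a chain of the VCAM-1 receptor, was at 8.69 CPM against 0 counts. PMC-303 was below all 6 primary cultures for Itgb2, which had 18.5 to 56.7 CPM, and PMC-306 was above all of them for Itgam, which had 0.0819 to 0.659 CPM.

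**Figure D3:**
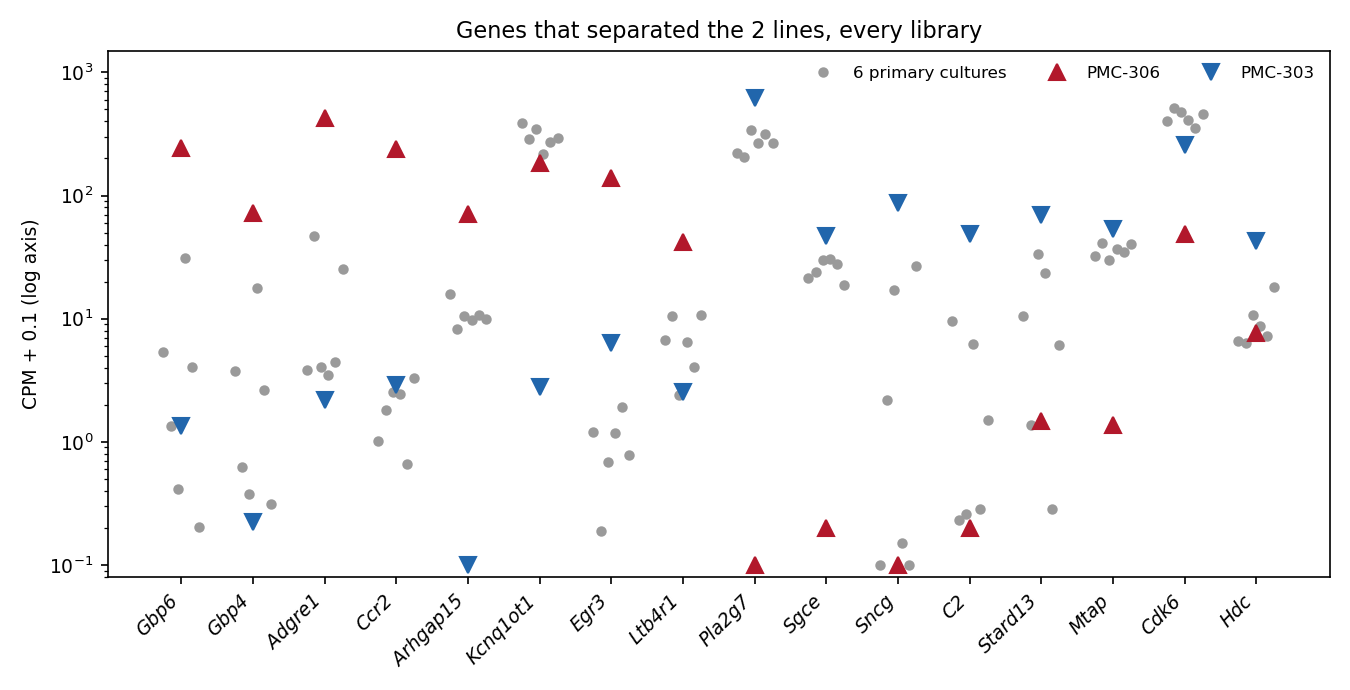
Level of 16 genes in every library as CPM + 0.1 on a log axis, with 6 primary cultures as grey points, PMC-306 as red upward triangles and PMC-303 as blue downward triangles. PMC-306 lies above all primary cultures for Gbp6, Gbp4, Adgre1, Ccr2, Arhgap15, Egr3 and Ltb4r1, and PMC-303 lies above all of them for Pla2g7, Sgce, Sncg, C2, Stard13, Mtap and Hdc.

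Regulators of the small GTPases that control the actin cytoskeleton differed at a few genes and not as a class. Arhgap15, a GTPase-activating protein for Rac, was at 70.8 CPM (1442 counts) in PMC-306 and had 0 counts in PMC-303, at least 317-fold higher in PMC-306. Primary cultures expressed 8.13 to 15.8 CPM around a median of 10.1 CPM, so PMC-306 was above and PMC-303 below every one of them. It was the single called gene among 37 GTPase-activating proteins (2.7%), whose median was 0.01, against a largest primary pair median of 0.16. Of 43 guanine nucleotide exchange factors, 5 (11.6%) were called. Arhgef3 at 13.5 against 0.0412 CPM and Prex1, an activator of Rac, at 6.78 against 0.165 CPM were higher in PMC-306. Arhgef16 at 0.0491 against 21.4 CPM, Arhgef28 at 5.94 against 67.8 CPM and Arhgef10 at 0.344 against 3.09 CPM were higher in PMC-303. Arhgef3 and Arhgef28 had been present in the primary cultures, at 0.896 to 40.4 and 32.3 to 69.0 CPM, whereas Arhgef16 and Prex1 were at 1.80 CPM or less in all of them. Of 27 such small GTPases and their effectors, the Cdc42 effector Cdc42ep4 at 0.147 against 12.7 CPM, Cdc42ep2 at 0.196 against 1.81 CPM and the kinase gene Pak1 at 0 counts against 2.55 CPM were called (11.1%), all higher in PMC-303. With an offset of 1 CPM, Arhgef3, Arhgef10, Cdc42ep2 and Pak1 were not called, and with TPM the last 3 were not. Stard13, another GTPase-activating protein, with a lipid-binding domain, was at 1.37 against 68.8 CPM, a 46.7-fold difference. It was not called, because primary cultures ranged from 0.187 through 8.25 to 33.5 CPM, and the widest of their pairs was further apart than the lines.

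Some genes induced within minutes of growth factor signalling were higher in PMC-306. Of 28 immediate early and ERK feedback genes compared, 5 (17.9%) were called, 18 had a positive difference and 10 a negative one, and the median of 0.42 equalled the largest primary pair median of 0.42. The zinc finger factors Egr3 and Egr2, the nuclear receptor Nr4a1 and the ERK phosphatase Dusp5 were called higher in PMC-306. Egr3 was at 139 against 6.22 CPM with primary cultures at 0.0879 to 1.80 CPM, so both lines were above all of them. Egr2 repeated this with 49.3 against 4.65 CPM and a primary range of 0.105 to 0.746 CPM, and Nr4a1 with 21.0 against 3.17 CPM and a range of 1.32 to 2.68 CPM. Dusp5 was at 29.9 CPM in PMC-306 and at 4.20 CPM in PMC-303, which was within the primary range of 2.00 to 6.40 CPM. Egr1 at 257 against 80.0 CPM, Fos at 36.9 against 9.96 CPM and Fosb at 41.9 against 13 CPM differed in the same direction by less than 5-fold. Jun, at 28.9 against 44.5 CPM, was among the 10 genes with a negative difference. Dusp8 was called in the other direction at a low level, with 0.0491 against 1.03 CPM, but not with TPM or an offset of 1 CPM.

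Inflammasome and cytokine genes were divided between the lines. Of 23 genes of pattern recognition, the inflammasome sensor Nlrp3 was at 119 against 14.1 CPM, and PMC-306 was above the primary range of 1.89 to 14.1 CPM. Casp1, the protease of the inflammasome, was at 3.78 against 0.37 CPM, and both lines were below the primary range of 8.68 to 36.9 CPM. Nod2 was called higher in PMC-306 at a low level, while Irak3, an inhibitor of Toll-like receptor signalling, was at 0.786 against 14.5 CPM. Nlrp3 was not called with TPM, Casp1 not with an offset of 1 CPM, and Nod2 with neither. The list, with 4 of 23 called (17.4%), had a median of 0.21, within the size of the largest primary pair median of 0.26. Of 26 cytokine genes, 3 were called higher in PMC-306 and 2 in PMC-303 (19.2%). The chemokine gene Ccl9 had 14.6 CPM and 3 counts (0.123 CPM), a CPM ratio of 118 (95% interval 40.0 to 576). Spp1, which encodes osteopontin, had 11.1 CPM and 2 counts (0.0823 CPM), and Tnfsf10, the TRAIL ligand, was at 12 against 2.10 CPM. Il15 at 0.344 against 3.99 CPM and Fgf2 at 0.0982 against 6.59 CPM were higher in PMC-303. Tnfsf10, Il15 and Fgf2 were not called with an offset of 1 CPM.

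Lipid mediator genes gave the widest difference of all. Pla2g7, which encodes the plasma phospholipase that inactivates platelet-activating factor, had 0 counts in PMC-306 and 15161 counts (624 CPM) in PMC-303, at least 2524-fold higher in PMC-303. All 6 primary cultures expressed it, from 207 through a median of 265 to 342 CPM, so that PMC-306 was below and PMC-303 above every primary culture. Its neighbour Ankrd66 was at 0.0982 against 3.09 CPM. Ltb4r1, the high-affinity receptor of leukotriene B4, was at 41.8 against 2.43 CPM, with primary cultures at 2.32 to 10.6 CPM. Ptgs1, cyclooxygenase 1, was at 12.9 against 85.1 CPM, with primary cultures at 16.5 to 90.9 CPM, so that here PMC-306 was outside the primary range, but Ptgs1 was not called with TPM. Among the uncalled genes, Alox5 stood at 1729 against 1874 CPM, Hpgds at 279 against 214 CPM and Ltc4s, the leukotriene C4 synthase, at 15.9 against 32.8 CPM. Of 17 genes, 3 (17.6%) were called, 1 higher in PMC-306 and 2 in PMC-303. The list had 11 negative differences and a median of -0.41, slightly larger in size than the largest primary pair median of 0.38.

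Sncg, which encodes gamma-synuclein, a small protein best known from sensory and motor neurons, had 0 counts in PMC-306 and 2094 counts (86.2 CPM) in PMC-303, at least 349-fold higher in PMC-303. Primary cultures ranged from 0 through 1.06 to 26.6 CPM, all below PMC-303. Of 9 genes of this neuronal list, the tau gene Mapt at 0.344 against 6.87 CPM was also higher in PMC-303, and the neurofilament gene Nefh at 1.47 against 0.0823 CPM was higher in PMC-306, though not with TPM or an offset of 1 CPM. The complement gene C2, which encodes a serine protease of the classical and lectin pathways, was at 0.0982 (2 counts) against 48.7 CPM, a CPM ratio of 496 (95% interval 137 to 4096). Primary cultures lay between 0.132 and 9.48 CPM with a median of 0.801 CPM, below PMC-303 in each case. Its neighbour Cfb, the alternative pathway counterpart, was at 0.0491 against 1.08 CPM, and these overlapping loci share reads with a joint transcript, Gm20547, so their split is uncertain. Of 8 complement genes compared, Itgam was called higher in PMC-306 and C2 and Cfb higher in PMC-303, Cfb not with TPM or an offset of 1 CPM.

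Most granule genes had lower levels in PMC-306 than in PMC-303. Of 11 mast cell granule proteases compared, 9 had a negative difference, with a median of -1.12 against a largest primary pair median of 0.74 in size, and 5 (45.5%) were called, 4 of them higher in PMC-303. The tryptase gene Tpsb2 was at 20.9 against 177 CPM, both under the primary range of 2857 to 10441 CPM. Mcpt2 was at 0.687 against 4.57 CPM and Mcpt8 at 0.246 against 3.17 CPM, while the related Mcpt4 at 0.0491 against 1.85 CPM was not called, since a primary pair was wider. Mcpt2, Mcpt8 and Tpsab1 were not called with an offset of 1 CPM. Ctsg, cathepsin G, pointed the other way with 14.9 against 1.61 CPM, both below the primary range of 163 to 527 CPM. Cpa3 and Cma1 were close, since Cpa3 was at 22835 against 23601 CPM and Cma1 at 7756 against 8332 CPM. Tryptases and Mcpt genes have related sequences, so reads may be split among them. Of 15 genes of granule matrix and amines, 2 (13.3%) were called, 14 had a negative difference, and the median of -0.86 was larger in size than the largest primary pair median of 0.22. Hdc, the histamine-forming enzyme, was at 7.61 against 42.4 CPM, with PMC-306 within the primary range of 6.19 to 18.1 CPM and PMC-303 above it. Hs3st1, a heparan sulfate sulfotransferase, was at 13.5 against 81.9 CPM, with PMC-306 below the primary range of 48.5 to 105 CPM and PMC-303 within it. Tph1, which starts serotonin synthesis, was at 2161 against 4867 CPM, and the amine transporter gene Slc18a2 at 454 against 934 CPM.

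**Figure D4:**
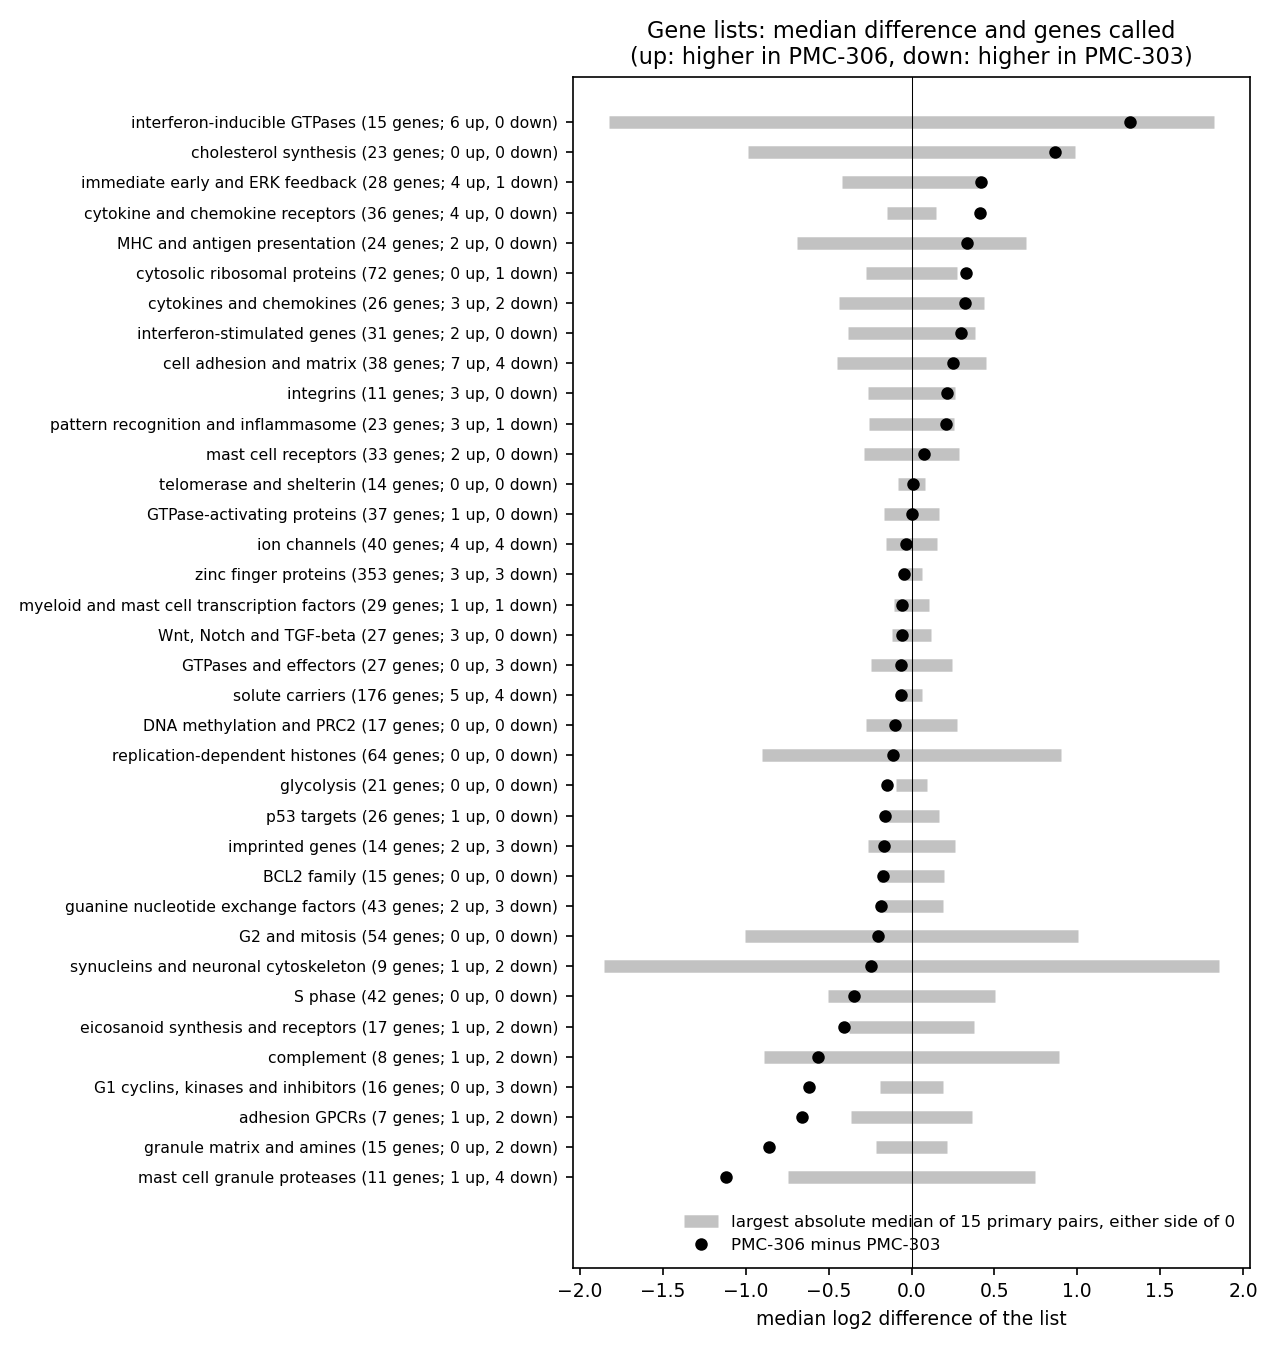
Median log2 difference of each gene list with at least 5 compared genes (black points), with grey bars that reach as far on either side of 0 as the largest absolute median of 15 primary pairs, and the number of genes called in each direction beside the name. Granule matrix and amines at -0.86, mast cell granule proteases at -1.12 and cytokine and chemokine receptors at 0.41 lie outside their bars, while interferon-inducible GTPases at 1.32 lie inside theirs.

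Most genes of the G1 control list, which holds cyclins, kinases and inhibitors and also Mtap, had a negative difference, 13 of 16 compared. The median was -0.62 against a largest primary pair median of 0.19 in size, and Cdk6, Cdkn2a and Mtap (18.8%) were called, all higher in PMC-303. Cdk6, a kinase that drives passage through G1, was at 49.0 against 257 CPM, both below the primary range of 354 to 511 CPM. The tumour suppressor gene Cdkn2a was nearly silent in both lines, as PMC-306 held 3 counts (0.147 CPM) and PMC-303 held 34 counts (1.40 CPM), while primary cultures had 67.0 to 103 CPM, and it was not called with an offset of 1 CPM. Mtap, the methylthioadenosine phosphorylase gene next to Cdkn2a, was at 1.28 against 52.9 CPM, with primary cultures at 29.8 to 41.1 CPM. The neighbouring Cdkn2b was at 6.24 against 30.7 CPM, PMC-303 being above the primary range of 3.69 to 7.13 CPM, and the difference lay under the 5-fold limit. The long non-coding Gm12606, which lies between Mtap and Cdkn2a, was undetected in PMC-306 and at 9.92 CPM in PMC-303, whereas no primary culture exceeded 0.0879 CPM. Around this locus on chromosome 4 (GRCm39, 89055359 to 89212890), PMC-306 therefore had little of Mtap, Gm12606 and Cdkn2a, and PMC-303 had little Cdkn2a beside Mtap at a level above the primary range.

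The difference on chromosome 4 was not limited to this locus. In bins of 5 Mb, the median difference was -0.61 between 85 and 90 Mb, and then between -0.79 and -1.10 in each of the 5 bins from 90 to 115 Mb, after which it returned to -0.10. In this segment, which was chosen by these bin medians, 68 of 70 compared genes had a negative difference, the median being -1.03, with a middle range from -1.25 to -0.73. The median corresponds to a level in PMC-306 of 0.488 times that in PMC-303. Both lines contributed to it, since the median difference from the primary mean was -0.685 for PMC-306 and 0.303 for PMC-303. PMC-306 was below all 6 primary cultures for 46 of the 70 genes and above all of them for 12. PMC-303 was above all 6 for 40 genes and below all of them for 11. The shares over all compared genes were not computed, and the medium of the lines differed from that of the primary cultures. Within the segment, the tyrosine kinase gene Jak1 was at 152 against 330 CPM, with primary cultures at 280 to 318 CPM. Usp24 was at 101 against 254 CPM, with primary cultures at 243 to 290 CPM. Tal1, a transcription factor of blood cell progenitors and mast cells, was at 193 against 350 CPM, with primary cultures at 313 to 376 CPM. Cdkn2c was at 18.6 against 41.3 CPM, and both lines were above the primary range of 1.10 to 4.69 CPM. Only Fggy, at 5.65 against 0.329 CPM, and Gm12669 were higher in PMC-306. The 5-fold limit was passed together with the primary pairs by 3 of the 70 genes, namely Fggy and, higher in PMC-303, Tut4 and Fam151a. The copy number of the segment was not measured in these data.

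Over whole autosomes, the median difference was -0.13 on chromosome 4 (733 genes) and -0.20 on chromosome 8 (684 genes), and between -0.10 and 0.02 on the other 17. Primary pairs had medians from -0.04 to 0.04 on chromosome 4 and from -0.04 to 0.03 on chromosome 8. Without the segment, the median of chromosome 4 was -0.09 over 663 genes. On chromosome 8 the shift was spread along the chromosome, and the median of PMC-303 minus the primary mean was 0.25 there, against 0.07 for PMC-306. On chromosome 8, 12 genes were called higher in PMC-306 and 13 in PMC-303.

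**Figure D5:**
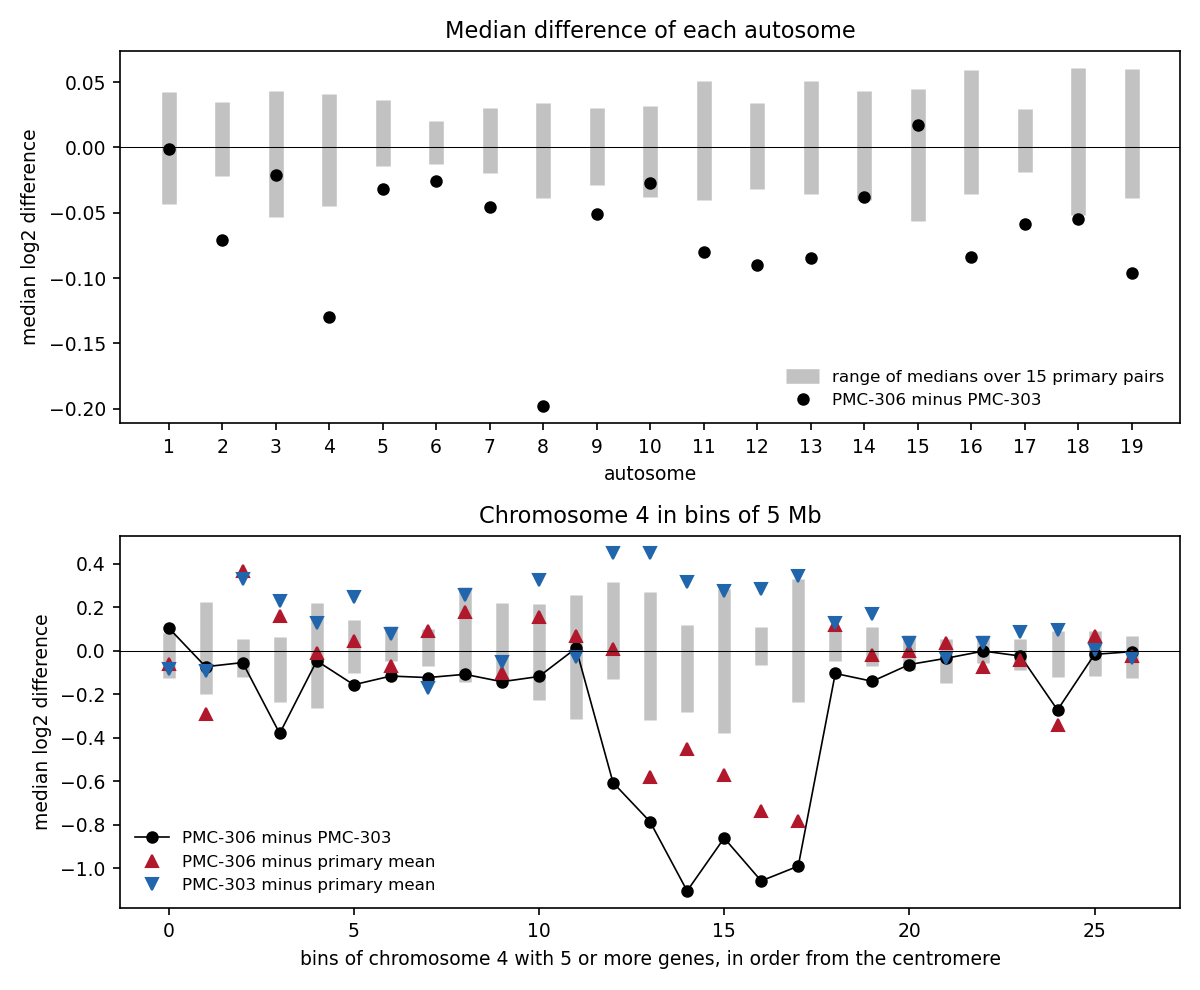
Upper panel, median log2 difference between the lines on each autosome (black points) with the range over 15 primary pairs (grey bars), where chromosomes 4 and 8 lie lowest at -0.13 and -0.20. Lower panel, the same along chromosome 4 in bins of 5 Mb that hold 5 or more genes, with PMC-306 (red) and PMC-303 (blue) relative to the primary mean, where 5 neighbouring bins from 90 to 115 Mb lie between -0.79 and -1.10.

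Imprinted genes, which are expressed from the maternal or the paternal copy alone, were called at 5 of 14 genes compared (35.7%). Kcnq1ot1, a paternally expressed long non-coding RNA that silences neighbouring genes on chromosome 7, was at 185 against 2.68 CPM, a 66.8-fold difference. Primary cultures were at 217 to 385 CPM, so PMC-306 was slightly and PMC-303 far below their range, the latter with 1.44% of the PMC-306 level, within the share seen for Y-linked transcripts. Kcnq1, whose locus overlaps Kcnq1ot1 on the opposite strand, was at 2.55 CPM against 0 counts, and the nearby tetraspanin gene Cd81 at 19.8 against 0.617 CPM. Igf2r, the maternally expressed receptor that clears insulin-like growth factor 2, was at 188 against 25.6 CPM, with primary cultures at 10.5 to 38.7 CPM. Sgce, which encodes epsilon-sarcoglycan, was at 0.0982 (2 counts) against 46.7 CPM, a CPM ratio of 475 (95% interval 131 to 3929), with primary cultures at 18.7 to 30.7 CPM. Sgce and its neighbour Peg10 at 0.0982 against 1.48 CPM lie head to head on chromosome 6, and Peg12 on chromosome 7 had 0 counts against 1.61 CPM. Kcnq1, Peg10 and Peg12 were not called with TPM or with an offset of 1 CPM. The median of the list was -0.17, within the size of the largest primary pair median of 0.26, and it was 0.395 without a minimum level.

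Some called genes lay beside each other. Counting protein-coding and long non-coding genes with at most 1 other compared gene between them, 104 called genes fell into 47 stretches of the same direction, 22 higher in PMC-306 and 25 in PMC-303. The longest stretch was the Gbp cluster with 6 genes, and 7 stretches held 3 or more. On chromosome 9, the junction genes Mpzl2, Mpzl3 and Jaml were at 0 counts, 0 counts and 1.28 CPM in PMC-306, and at 1.81, 7.37 and 32.7 CPM in PMC-303. On chromosome 2, the prion protein gene Prnp was at 9.67 against 205 CPM beside Smox at 4.71 against 27.3 CPM. Primary cultures had at least 140 CPM of Prnp with a median of 220 CPM, so that PMC-306 was the line outside their range. On chromosome 11, the haemoglobin genes Hba-a1 and Hba-a2 were at 22.8 and 1.54 CPM in PMC-306 and at 0 counts in PMC-303, while no primary culture exceeded 0.0459 CPM of Hba-a1. These 2 genes are near-identical and their split is uncertain. The beta-globin genes Hbb-bs and Hbb-bt stayed under 1 CPM in both lines.

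Of the remaining genes with the widest differences higher in PMC-306, most were at or near 0 in PMC-303 and in the primary cultures. Tgm2, a protein-crosslinking transglutaminase, was at 75.6 against 0.288 CPM, and Cd52, a small glycosylated surface antigen of lymphocytes, at 41.3 against 0.0823 CPM. Cdh17, a cadherin of intestinal epithelium, was at 16.2 CPM against 0 counts and was not detected in any primary culture, and Ccn5 at 12.5 CPM and Plac8 at 13 CPM also had 0 counts in PMC-303. Flrt3 at 20.5 CPM, Crisp1 at 17.5 CPM, Sgsm1 at 23.8 CPM, Thsd4 at 12.9 CPM and the peptide transporter gene Slc15a2 at 12.9 CPM were at 0.247 CPM or less in PMC-303. Calcrl, the receptor for calcitonin gene-related peptide and adrenomedullin, differed from these in being a gene of the primary cells. It was at 11.0 CPM in PMC-306 and at 1 count (0.0412 CPM) in PMC-303, with primary cultures at 7.53 to 18.9 CPM. The transcription factor gene Maf behaved similarly, with 4.66 CPM in PMC-306 and 1 count in PMC-303 against 5.56 to 16.4 CPM in primary cultures.

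Among the widest differences higher in PMC-303, several were genes of the primary cells that were nearly absent from PMC-306. Ano3, a membrane protein of the anoctamin family, was at 0.54 against 88.1 CPM with primary cultures at 21.1 to 143 CPM. Epb41l1, a membrane-skeleton protein, was at 0.687 against 52.6 CPM with primary cultures at 9.49 to 37.3 CPM. Actn1, an actin crosslinker, was at 0.147 against 12.8 CPM with primary cultures at 4.48 to 12.9 CPM, and Ccdc92b was at 0.0491 against 19.1 CPM with primary cultures at 2.68 to 20.3 CPM. Cpeb1, a regulator of mRNA polyadenylation, was at 0.442 against 18.2 CPM, both lines being below the primary range of 28.0 to 80.7 CPM. Other genes had low primary levels and lay above them in PMC-303. Cyria, a regulator of Rac, was at 0.246 against 60.1 CPM with primary cultures at 1.71 to 23.4 CPM, and Rps4l, a ribosomal protein S4 copy, had 0 counts against 34.9 CPM with at most 5.01 CPM in primary cultures. Dnah14 at 29.1 CPM and the splicing factor gene Rbfox1 at 13.5 CPM had 0 counts in PMC-306, and Rnf17 at 20 CPM, Gdf3 at 15.8 CPM, the phosphodiesterase gene Pde10a at 14.3 CPM and Shtn1 at 11.5 CPM had 1 count each. Rps4l resembles other S4 genes, so its value is uncertain.

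Lists of proliferation and metabolism held few or no called genes. None of 42 S phase genes, 54 G2 and mitosis genes, 64 replication-dependent histone genes, 21 glycolytic genes, 17 genes of DNA methylation and Polycomb, 15 BCL2 family genes or 14 telomerase and shelterin genes was called. The S phase list had a median of -0.35 with a negative difference at 41 of 42 genes, within the size of the largest primary pair median of 0.51, and the G2 list had -0.20. Of 23 cholesterol synthesis genes, 21 were higher in PMC-306, with a median of 0.86, within the size of the largest primary pair median of 0.99. Hmgcs1, a synthase early in the pathway, was at 636 against 227 CPM, both lines being above the primary range of 104 to 212 CPM. Of 72 cytosolic ribosomal protein genes, 67 were higher in PMC-306, with a median of 0.33 that was larger than the largest primary pair median of 0.27, and Rps4l was the called exception in the other direction.

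Of 29 myeloid and mast cell transcription factors, Maf and Id3 were called (6.90%), in opposite directions, the first not with TPM and the second not with an offset of 1 CPM, and Gata2 at 662 against 582 CPM and Mitf at 252 against 227 CPM were close. Of 26 p53 targets Gadd45a was called (3.85%), at 5.21 against 0.288 CPM, but not with an offset of 1 CPM. Of 27 Wnt, Notch and TGF-beta genes, Dkk2, Fzd6 and Hey2 were higher in PMC-306, the last at 9.04 against 1.15 CPM with at most 0.0622 CPM in primary cultures, and with an offset of 1 CPM none of these 3 was called. Cell adhesion and matrix genes were called at 11 of 38 (28.9%), with 7 higher in PMC-306, among them the cadherin genes Cdh17 and Cdh1, and 4 in PMC-303, among them Col6a3 at 1.57 against 20 CPM. Ion channel genes were called at 8 of 40 (20%), 4 in each direction, with Clcn3 at 5.94 against 58.1 CPM and Scn7a at 7.22 against 0.123 CPM. Solute carriers were called at 9 of 176 (5.11%), near the 3.91% of all genes. A list of zinc finger genes, which also took in every gene named Gm13 with further digits, was called at 6 of 353 (1.70%). Its called members included Gm13610 and Gm13031, which are long non-coding RNAs, so this share does not describe zinc finger proteins alone. The 1 Hox gene compared was not called.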

How the data were processed

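Gene expression was measured by bulk RNA sequencing in 8 libraries. Per the submitters' processing notes, the authors used Trim Galore 0.6.7, STAR 2.7.9a and Salmon 1.5.2 with GRCm39. The authors deposited estimated counts and TPM (transcripts scaled to a common total) per gene and transcript. A spreadsheet program had altered 3.37% of the cells with gene counts, which were restored from their own digits. After this, 99.7% of gene counts lay within 0.2 of the sum of their transcripts' counts, with a largest difference of 1.53. In part of the TPM cells the position of the decimal point was set with the help of the counts. Gene positions came from GENCODE M39, in which 54749 of 55359 genes (98.9%) were found.

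Restored counts were scaled to CPM of the library total with trimmed-mean-of-M-values factors. An autosomal gene was compared at 1 CPM in either line, with differences on log2(CPM + 0.1), and called at 5-fold when also wider than all 15 primary pairs. Samples were grouped by the labels. With 1 library per line no test was run, and no statement covers the spread between libraries of a line. Intervals are exact Clopper-Pearson intervals at 95%. Members and gene lists were chosen with earlier results of these data known. Named genes were the 20 protein-coding genes at 10 CPM or more with the widest called differences in each direction, called members and defining members of the lists, and Adgre1, Gbp6, Arhgap15, Sncg, Stard13 and C2. Differences were ranked with counts under 3 in the lower line set to 3. Further genes named for context were chosen after their values were seen. The chromosome 4 segment and the count of CG pairs were also chosen after seeing the data. No 2 libraries agreed within sampling noise. Alternatives were other scalings, TPM, offsets, minimum levels, folds and sets of primary cultures. The scripts were tested on simulated data and used Python 3.11.15, numpy 2.4.6, pandas 2.3.3, scipy 1.17.1 and matplotlib 3.10.9.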

Additional observations from a re-analysis of the deposited data

Results flagged for a closer look

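For 20 of 41 genes looked at, the lines lay on opposite sides of all 6 primary cultures, and the difference between the lines was not tested. The 41 genes were the 40 widest called differences and Stard13, a choice that favours opposite sides. Among all called genes, this held for 56 of those higher in PMC-306 (24.8%) and 80 of those higher in PMC-303 (31.1%). The share over all compared genes was not computed. Higher in PMC-306, with the level there, were Adgre1 (426 CPM), Gbp4 (71.5 CPM), Arhgap15 (70.8 CPM), Cd52 (41.3 CPM), Ccl9 (14.6 CPM) and Thsd4 (12.9 CPM). Higher in PMC-303, with the level there, were Pla2g7 (624 CPM), Cyria (60.1 CPM), Mtap (52.9 CPM), Epb41l1 (52.6 CPM), C2 (48.7 CPM) and Sgce (46.7 CPM). The same held at lower levels for Rps4l (34.9 CPM), Dnah14 (29.1 CPM), Arhgef16 (21.4 CPM), Rnf17 (20 CPM), Pde10a (14.3 CPM), Rbfox1 (13.5 CPM), Cdc42ep4 (12.7 CPM) and Shtn1 (11.5 CPM). For Ccn5, 1 primary culture stood apart from the other 5, with a gap of 1.000 of the whole range, which rested on 1 count in male culture 1 and 0 counts elsewhere. Chance marks about 1 in 20 groups in this way.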

How the results depend on the processing

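The counts of 226 genes higher in PMC-306 and 257 higher in PMC-303 depended most on the offset, the minimum level and the fold. They were 122 and 117 with an offset of 1 CPM, 100 and 93 at 10 CPM or more, 512 and 615 at 2-fold, and 132 and 146 at 10-fold. With an offset of 0.5 CPM, 156 genes were higher in PMC-303. Leaving out each primary culture in turn gave 230 to 242 genes higher in PMC-306 and 259 to 271 higher in PMC-303. The other scalings, TPM, the fold alone, either sex of primary cultures and protein-coding genes alone stayed within 1.5 times the counts. TPM gave 256 and 246, of which 172 and 171 were among those called from counts. Of 130 named called genes, 102 were called with TPM, 98 with an offset of 0.5 CPM, 84 with 1 CPM, 83 at 10-fold and 74 at 10 CPM or more, and of the 40 widest differences at least 39 were called under each of these. The chromosome 4 median of -0.13 was -0.10 with library totals, -0.067 with TPM and 0.00 without a minimum level. The chromosome 8 median of -0.20 was -0.17 with library totals, -0.17 with median-of-ratios factors, -0.15 with TPM, -0.23 at 10 CPM or more and 0.00 without a minimum. Of 304 comparisons of list medians, 3 changed sign in a list whose median had been larger in size than every primary pair median. These were adhesion G protein-coupled receptors (0.15 without a minimum) and eosinophil and basophil markers (0.13 at 10 CPM or more and 0.064 without a minimum). Counting also lists with smaller medians, 10 of 44 lists changed sign under at least 1 setting. None of 840 comparisons of single genes changed direction. The causes were not tested. No paired analysis was possible because each line has 1 library. Genes near 1 CPM rest on few counts and the 5-fold limit is reached by counting error more easily there.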
